A study of Bos taurus with 3 samples.

Results

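Argonaute-bound RNA of bovine retina was read here at 7 miRNA genes known for their abundance in the retina: MIR183, MIR96 and MIR182, which form the miR-183 cluster, MIR204 and MIR211, and MIR181A1 and MIR181C. They were chosen by gene name in the deposited lists of Argonaute sites for the positive and the negative strand. All 7 names were found, each with 1 site, among 402 listed sites, of which 22 lay in miRNA genes. A listed site was found at 1.84% of the 1032 miRNA genes in the RefSeq gene table. This share counts the 19 genes matched by name, fewer than the 22 listed, so it is a low estimate. The other 15 miRNA genes and the 380 sites outside miRNA genes served for comparison. The series holds 3 replicates of 1 group and no control sample. The tissue was dissected retina of cattle of mixed strain, broken up into clusters of cells and exposed to ultraviolet light in 3 doses of 400 mJ/cm2, which links RNA to bound protein. RNA that came down with Argonaute was then sequenced (HITS-CLIP, in which crosslinked RNA is immunoprecipitated and sequenced). The labels give no age of the animals and do not say whether the replicates came from separate animals or pools, so the spread over replicates may be technical only.

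A miRNA gene is transcribed as a long primary RNA in which the miRNA sits in a hairpin. The hairpin is cut out, its loop is removed, and 1 of the strands left, from the 5' arm or the 3' arm of the hairpin, stays in Argonaute and guides it to target RNAs by its seed, a short stretch near the 5' end of the mature miRNA. In an Argonaute HITS-CLIP library the miRNA itself is pulled down along with its targets, so a site in a miRNA gene can hold the guide itself; whether tags came from the guide, the other arm or a precursor was not tested here. In mouse, the miR-183 cluster is transcribed as 1 primary RNA, is abundant in photoreceptors and the other sensory cells of ear and nose, and is needed to keep photoreceptors intact. miR-204 and miR-211 share a seed, lie in introns of the TRPM3 and TRPM1 channel genes in mammals, and are known from retinal pigment epithelium and eye development. The miR-181 family shares a seed as well and is known from inner retinal neurons.

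The sites of the 7 genes held 77, 65 and 62 of the 6421, 5779 and 4114 tags listed in replicates 1, 2 and 3. Their share of the listed tags was 1.2% in replicate 1 (95% Wilson interval 0.961 to 1.5), 1.12% in replicate 2 (interval 0.883 to 1.43) and 1.51% in replicate 3 (interval 1.18 to 1.93). These intervals overlapped and cover counting error only. They treat each tag as a separate draw, although tags are not described as carrying molecular identifiers and were limited by peak length, as described below. The totals count only tags in listed sites and are not library depths. With bulk tissue, fewer cells of a type and less RNA per cell cannot be told apart. The tissue label was checked with a list of photoreceptor markers, of which 11 of 13 carried a site. This list was chosen with earlier results of these data known, so the check was not independent of them. None of 10 markers of pigment epithelium and blood did, but MIR451, a miRNA of red blood cells, was listed with 8, 10 and 9 tags. A listed site was carried by 1.15% of the 21664 protein-coding genes in the RefSeq gene table, so that 0 of 10 says little.

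The miR-183 cluster had the highest values, in the order MIR182, MIR183, MIR96. The MIR182 site lay on chromosome 4 (96328730 to 96328797, negative strand, class non-coding RNA, in the authors' coordinates; their build is not given in the sources used). It held 18, 16 and 15 tags in replicates 1, 2 and 3, or 16.3 ± 1.53 (SD, n = 3). All of its replicates were above every tag count of the 6 other genes. MIR182 ranked 82 among the 402 sites by mean tags, which depend on the length of the peak, and 28 by the pile-up of tags at the summit. The pile-up has a narrow range of its own, with no value above 20 in any of the 1206 peaks, so neither rank measures binding strength.

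MIR183, on chromosome 4 (96333453 to 96333518, negative strand), held 14, 12 and 12 tags, or 12.7 ± 1.15 (SD, n = 3). MIR96, on chromosome 4 (96333229 to 96333295, negative strand), held 12, 9 and 9 tags, or 10 ± 1.73 (SD, n = 3). MIR183 lay above MIR96 in every replicate, although the ranges touched at 12 tags. The 3 cluster genes thus kept the same order in all 3 replicates. On the negative strand, MIR183 comes first, its summit 223 nt from that of MIR96, and the MIR182 summit follows 4499 nt further on. No listed site fell between them, and the next site on chromosome 4 was one of HIPK2, a protein kinase, 9.77 Mb away.

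MIR204, on chromosome 8 (49074817 to 49074880, negative strand), held 11, 9 and 7 tags, or 9 ± 2 (SD, n = 3). MIR211, on chromosome 21 (27395750 to 27395777, negative strand), held 6 tags in each replicate. MIR204 was above MIR211 in every replicate, by 5, 3 and 1 tags. In assembly ARS-UCD2.0, by the RefSeq gene table, MIR204 lies inside TRPM3 and MIR211 inside TRPM1, and neither of these host genes had a listed site of its own.

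MIR181A1, on chromosome 16 (75929980 to 75930045, negative strand), held 7, 7 and 8 tags, or 7.33 ± 0.577 (SD, n = 3). MIR181C, on chromosome 7 (10063393 to 10063453, negative strand), held 9, 6 and 5 tags, or 6.67 ± 2.08 (SD, n = 3). Their order changed between replicates: MIR181C was higher in replicate 1 and MIR181A1 in replicates 2 and 3. The gene table holds 6 miR-181 loci, and the 4 others, MIR181A-2, MIR181B-1, MIR181B-2 and MIR181D, were not listed. The mature miR-181 members differ little, and in human and mouse the genes MIR181A1 and MIR181A2 give the same mature guide. The sources used here do not give how tags that match several loci were placed, so the division of tags among miR-181 loci, and between the closely related miR-204 and miR-211, is uncertain.

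**Figure D1:**
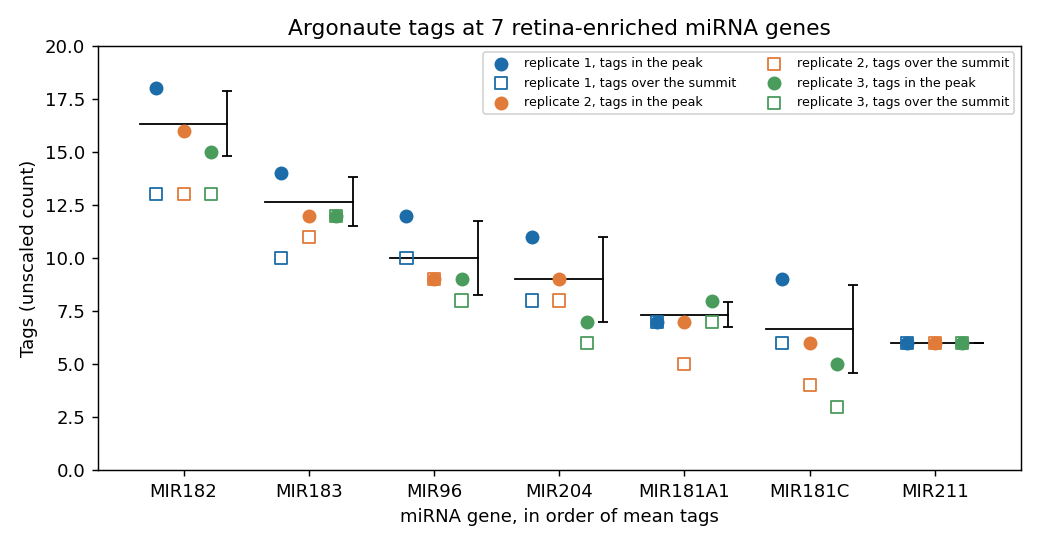
Unscaled tags (filled circles) and tags over the summit (open squares) at each of the 7 genes, coloured by replicate; lines are means of the tags and bars their SD (n = 3). The MIR182 circles, at 15 to 18, lie above all others, and at MIR211 circles and squares coincide at 6.

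The step from one gene to the next was tested within replicates by an exact two-sided sign-flip permutation test, for which 3 replicates allow no p below 0.25. Over the 6 pairs of neighbours in the order of mean tags no adjusted p was below 0.75. MIR182 exceeded MIR183 by 4, 4 and 3 tags (exact permutation test, p = 0.25), and summed over replicates the ratio was 1.29, with an exact binomial interval for counting error of 0.827 to 2.02. MIR183 exceeded MIR96 by 2, 3 and 3 tags (exact permutation test, p = 0.25), with a ratio of 1.27 (interval 0.764 to 2.12). These were the only neighbours with 1 sign in all 3 replicates.

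For MIR96 over MIR204 the differences were 1, 0 and 2 tags, and the ratio was 1.11 (interval 0.638 to 1.94). For MIR204 over MIR181A1 they were 4, 2 and -1 tags, with a ratio of 1.23 (interval 0.673 to 2.26). MIR181A1, MIR181C and MIR211 followed each other with ratios of 1.10 (interval 0.573 to 2.12) and 1.11 (interval 0.558 to 2.23). Neighbours in the order were therefore not separated by these intervals. The intervals take tags as free counts, whereas the length of a peak limited them, as described below. Between the ends of the cluster's order, MIR182 and MIR96, the difference was 6, 7 and 6 tags (exact permutation test, p = 0.25). The ratio was 1.63 (interval 1.02 to 2.67). This pair was taken from an order set by the same tags, so the interval does not test the difference. The MIR96 peak of replicate 2, at 28 nt, also held as many tags as its length allowed, a limit described below. Within the pair that shares a seed, MIR204 to MIR211 gave a ratio of 1.5 (interval 0.796 to 2.89).

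An exact multinomial test of every listed site asked whether its replicates differed by more than counting noise, after scaling by the median ratio and with Benjamini-Hochberg adjustment over 402 sites. It called 20 sites, or 4.98% of all. None of the 7 was called by this exact test, with adjusted p from 0.940 to 1, and none had an unadjusted p under 0.05 either. The counts are small, from 18 to 49 tags per gene over all replicates, so a moderate difference would not be detectable with such counts. The test also takes tags as free counts, whereas the length of a peak limited them, as described below. With tags scaled in the same way, the coefficient of variation over replicates had a median of 15.8% at the 7 genes (3.68% at MIR204 to 32.3% at MIR181A1), 24% at the other miRNA genes and 27.7% at sites outside miRNA genes. Without scaling the medians were 9.35%, 12.5% and 35.8%. MIR211, with equal tags in every replicate, had 24% after scaling. The sites outside miRNA genes also had longer peaks, with a median of 75.3 nt against 55 nt, and the part of length in these differences was not tested.

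The position of the peaks was nearly the same in every replicate. At MIR182 and at MIR96 the summit, the base with the highest pile-up of tags, was the same base in all 3 replicates. It moved by 1 nt at MIR204, MIR211 and MIR181C and by 2 nt at MIR183 and MIR181A1. Summits within 2 nt, a limit chosen after the values were seen, were thus found at 7 of 7 genes, against 17.7% of all 402 sites. The other miRNA genes had 13 of 15, and sites outside miRNA genes 51 of 380, with a median spread of 10 nt and none above 39 nt. The 7 genes and the other miRNA genes were thus similar in this, at a median spread of 1 nt each. Peaks outside miRNA genes were longer, with a median of 75.3 nt against 55 nt at the 7 genes. A shorter peak leaves a summit less room to move, and the part of length in this contrast was not tested.

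**Figure D2:**
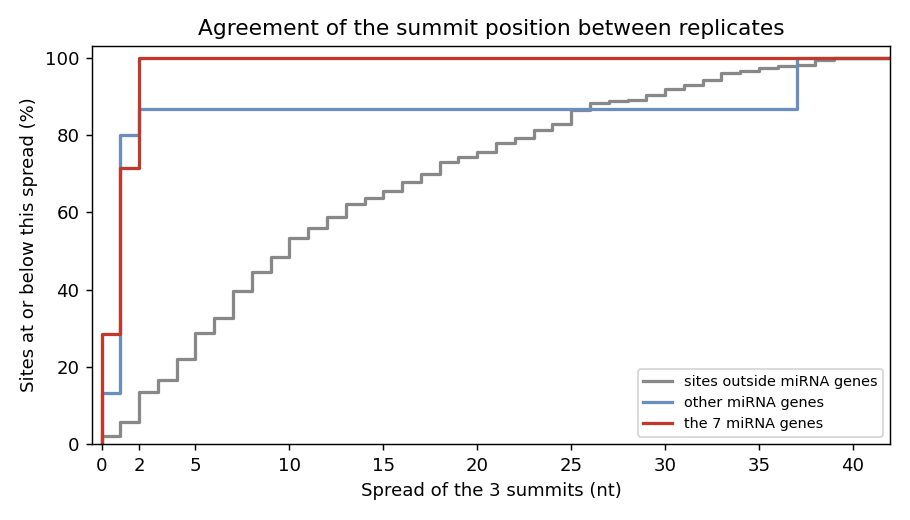
Cumulative share of sites (%) against the distance in nt between the outermost of the 3 summits, for the 7 genes, the 15 other miRNA genes and the 380 sites outside miRNA genes. The 7 genes reach 100% at 2 nt, whereas the sites outside miRNA genes reach 13.4% there.

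The 2 edges of the peaks behaved differently. On the negative strand the 5' edge of a peak is its end with the higher coordinate. The 5' edges of the 3 peaks lay at the same base at MIR182, MIR183, MIR181A1 and MIR181C, within 1 nt at MIR96 and within 2 nt at MIR204 and MIR211. All 7 genes were within 2 nt, as were 13 of the 15 other miRNA genes and 11.2% of all sites. The 3' edge was within 2 nt only at MIR182, MIR181C and MIR211. It moved by 12 nt at MIR204, 32 nt at MIR183, 35 nt at MIR181A1 and 38 nt at MIR96. At sites outside miRNA genes the median spread was 28 nt for the 5' edge and 16 nt for the 3' edge.

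The spread of the 3' edge went with the length of the peaks, which were either short or long. Of the 21 peaks of the 7 genes 6 were short, from 25 to 34 nt, and 15 were long, from 51 to 68 nt, with none between. The division was set at the widest gap in these same 21 lengths, so none could lie between. At the other miRNA genes 2 of 45 peaks did. Of the 45 peaks of other miRNA genes 19 were no longer than 34 nt (42.2%, against 28.6% at the 7 genes), and of all 1206 peaks 12%. A mature miRNA is shorter than the short peaks, whereas the long ones approach the span of both arms of a hairpin with its loop. The 3 peaks of MIR211 were 27, 26 and 25 nt long, all short. The 3 peaks of MIR182 were 68, 67 and 67 nt long, those of MIR181C 61 nt in each replicate and those of MIR204 52, 63 and 62 nt, all long.

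The other 3 genes had a short peak in 1 replicate each. The lengths were 66, 65 and 34 nt at MIR183, 51, 28 and 66 nt at MIR96, and 31, 66 and 65 nt at MIR181A1. Each of the 3 replicates held 2 short peaks, 1 of them at MIR211, so the short form did not go with a single library. The 2 shortest of the long peaks, 51 nt at MIR96 and 52 nt at MIR204, were both of replicate 1.

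**Figure D3:**
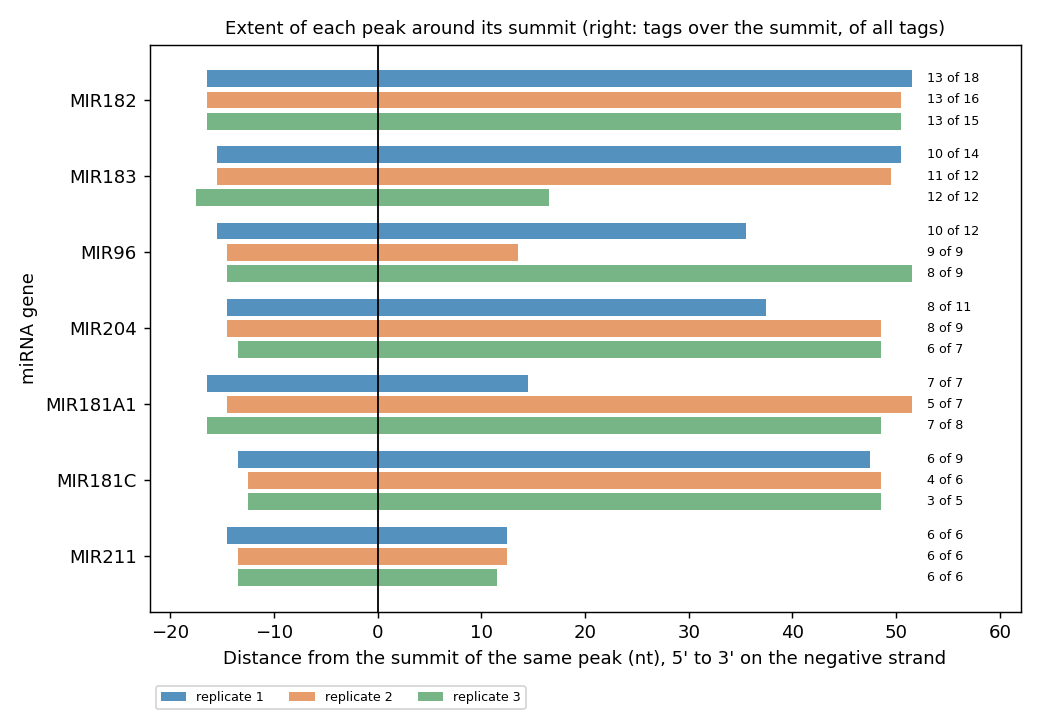
Extent in nt of the peak of each gene in each replicate, aligned at its own summit and drawn 5' to 3', with the number of tags over the summit of all tags at the right. All 21 peaks begin 12 to 17 nt before the summit, and they end 11 to 16 nt after it in the 6 short peaks and 35 to 51 nt after it in the 15 long ones.

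The summit kept its distance from the 5' edge whatever the length of the peak. It lay 12 to 17 nt from that edge in all 21 peaks. Its distance from the 3' edge was 11 to 16 nt in short peaks and 35 to 51 nt in long ones. The pile-up was therefore on the 5' side of every long peak, where the 5' arm of the hairpin would lie if the strand of the list is that of the transcript. For these miRNAs the strand from the 5' arm is the one commonly given as the guide in mammals. The arms were not located in these peaks, and which arm the tags came from was not tested. Counted over all peaks, the summit was nearer to the 5' edge in 15 of the 21 peaks, the long ones, against 37.2% of all 1206 peaks. At the other miRNA genes it was so in 19 of 45 peaks, none of them among their 19 short peaks. The share of short peaks, 42.2% there against 28.6% at the 7 genes, thus enters this comparison. Their longer peaks departed from the 5' side only at MIR324, MIR16A and MIR125B2.

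The authors' fold enrichment shows how many tags covered the summit. Within each replicate and strand it rose in equal steps, and every one of the 1206 values was a whole multiple of the step within 0.01, so the multiple was read as the pile-up at the summit. It never exceeded the tags of the peak. At the 7 genes 171 tags covered the summit and 33 did not. All tags covered the summit in the 6 short peaks, and 1 to 5 tags did not in each of the 15 long peaks. Every tag covered the summit in 28.6% of the peaks of the 7 genes, in 42.2% of those of other miRNA genes and in 15.3% of all 1206 peaks. A short peak leaves a tag little room to miss the summit, and all short peaks of other sites had every tag over it as well.

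MIR182 had a pile-up of 13 in every replicate, although its tags were 18, 16 and 15. The tags away from the summit were 5, 3 and 2, so its replicates differed in these alone. MIR183 had a pile-up of 10, 11 and 12, and its tags away from the summit were 4, 1 and 0. MIR96 had 10, 9 and 8 over the summit and 2, 0 and 1 away from it. Within the cluster the order MIR182, MIR183, MIR96 held for the pile-up on average, at 13, 11 ± 1 and 9 ± 1 (SD, n = 3), with MIR183 and MIR96 equal in replicate 1.

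MIR204 had a pile-up of 8, 8 and 6, with 3, 1 and 1 tags away from the summit. At MIR211 all 6 tags covered the summit in every replicate. MIR181A1 had a pile-up of 7, 5 and 7. MIR181C had one of 6, 4 and 3, the lowest of the 7 genes, with 3, 2 and 2 tags away from the summit, so that 64.4% ± 3.85 of its tags covered the summit (SD, n = 3). By pile-up MIR211, at 6, came before MIR181C, at 4.33 ± 1.53 (SD, n = 3), the reverse of their order by tags.

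The tags of a peak were limited by its length in these lists, which bears on the order of the genes. In every peak the length exceeded the tags by at least 19 nt. At the 7 genes 2 peaks met that limit, those of MIR96 in replicate 2 (9 tags in 28 nt) and of MIR211 in replicate 3 (6 tags in 25 nt). The 3 peaks of MIR211 reached 75%, 85.7% and 100% of the tags that their length allowed. Its equal tags in all replicates thus stood close to a limit, and its low rank beside MIR204 was not tested apart from length. MIR182 reached 33.8% ± 2.77, MIR204 23.4% ± 8.89 and MIR181C 15.9% ± 4.96 (SD, n = 3), well inside the limit.

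Per length the genes of the cluster and MIR211 were alike. MIR182 had 24.2 ± 2.07 tags per 100 nt, MIR183 25 ± 9.03, MIR96 23.1 ± 9.26 and MIR211 23.1 ± 0.889 (SD, n = 3). MIR204 had 15.6 ± 5.06, MIR181A1 15.2 ± 6.48 and MIR181C 10.9 ± 3.41 on the same scale. The order by tags therefore did not carry over to tags per length, where MIR211, last by tags, was level with the cluster. The MIR211 peaks stood at 75% to 100% of the tags their length allowed and MIR182 at 33.8% on average, so these values had unlike room to rise. MIR183 was above MIR182 in replicate 3 alone, with 35.3 against 22.4 tags per 100 nt, in which its peak was short, and below it in the others, with 21.2 against 26.5 and 18.5 against 23.9.

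**Figure D4:**
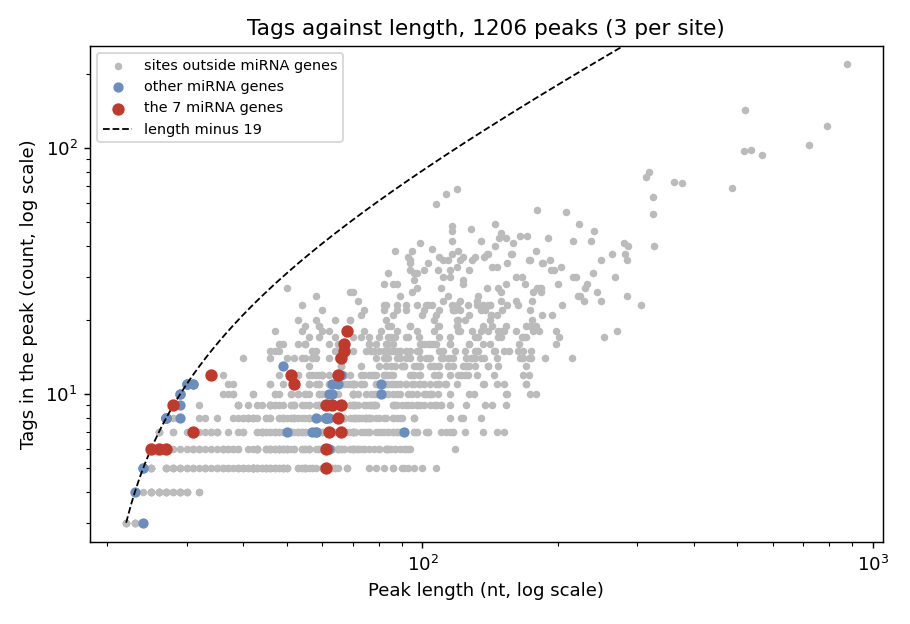
Tags of a peak against its length in nt, both on log scales, for the 21 peaks of the 7 genes, the peaks of other miRNA genes and those outside miRNA genes; the dashed line is the length minus 19. Short peaks of the 7 genes (25 to 34 nt) lie at or near the line, and long ones (51 to 68 nt) well below it.

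The authors' peak score, -10 times the log10 of a p-value, moved with length too. It ran from 215.28 at MIR181C in replicate 3 to 681.52 at MIR182 in replicate 1. MIR183 had 12 tags in replicates 2 and 3, with a score of 467.38 for the 65 nt peak and 615.42 for the 34 nt peak. MIR96 had 9 tags in the same replicates, with 494.78 for the 28 nt peak and 373.35 for the 66 nt peak. MIR181A1 had 7 tags in replicates 1 and 2, with 357.41 for 31 nt and 272.87 for 66 nt. In all of these pairs the shorter peak had the higher score at equal tags. It also had the higher pile-up at the summit, with 12 against 11 at MIR183, 9 against 8 at MIR96 and 7 against 5 at MIR181A1. Replicates also differ in the background the score was taken against. The parts of length, pile-up and background in these differences were not tested.

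Beside the other miRNA genes the 7 were not set apart by height. Their mean tags had a median of 9 (6 to 16.3), against 8.33 (5.33 to 11.3) at the 15 other miRNA genes and 10.7 at sites outside miRNA genes. MIR182 and MIR183 exceeded the highest of the 15, MIR30E and MIR500 with 11.3 tags each. The lowest of the 15, MIR216A and MIRLET7C with 5.33 tags, were below all 7. The median pile-up was 7.33 at the 7 genes, 6.33 at the other miRNA genes and 6.33 outside miRNA genes. The percentage of the length limit reached was lower at the 7 genes (median 33.8% against 44.6%), while tags per 100 nt were higher (median 23.1 against 16.6). No test was made over these groups, since the genes were picked by name.

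Sites with tags and lengths most like each family, measured as the sum over the 3 replicates of the absolute log2 differences in both from the family's mean, were mostly in protein-coding genes. For the miR-183 cluster these were coding sites of SAG, the rod arrestin, and SLC4A7, a bicarbonate transporter, and a 3' UTR site of GRSF1, an RNA-binding protein of mitochondria, with 13.3, 13.3 and 14 tags on average. For MIR204 and MIR211 they were a coding site of PDE6G, the inhibitory subunit of rod phosphodiesterase, with 6.33 tags, an intron site of KIRREL3, a cell adhesion protein, with 7.33, and a coding site of GPI, a glycolytic enzyme, with 8.33. Their peaks were 42, 41 and 42 nt long at PDE6G, 32, 46 and 44 nt at KIRREL3 and 36, 38 and 37 nt at GPI. These lengths lay between the long peaks of MIR204 and the short ones of MIR211, so the sites were like the mean of the pair and like neither gene. For the miR-181 genes they were a coding site of HIPK2, with 7 tags, a 3' UTR site of VAMP2, a synaptic vesicle protein, with 7.67, and MIR99A with 7.67. The summed differences were 0.966 to 1.23 over these 9 sites. The summits of 5 of these 9 sites lay within 2 nt, those of SLC4A7, PDE6G, KIRREL3, GPI and MIR99A. At the other 4 they spread over 12 nt at GRSF1, 17 nt at HIPK2, 30 nt at SAG and 34 nt at VAMP2.

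The files assign no miRNA to a target site, so genes reported elsewhere as targets were only looked up by name. Of 14 reported targets of the miR-183 cluster 1 carried a site, CLOCK, a core transcription factor of the circadian clock, with 16, 8 and 5 tags in its 3' UTR. Of the 21 reported targets of miR-181 that were looked up 2 carried one, both in the 3' UTR. XIAP, an inhibitor of caspases, held 34, 33 and 24 tags at its tallest site. NLK, a protein kinase, held 13, 16 and 5. None of 14 reported targets of miR-204 and miR-211 was listed.

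Of 16 genes of miRNA biogenesis and Argonaute complexes 2 carried a site. TNRC6B, which links Argonaute to silencing, held 24, 11 and 8 tags at its tallest 3' UTR site, and AGO2, the slicing Argonaute itself, held 15, 10 and 4. These shares stand beside 1.15% of all protein-coding genes in the gene table, many of which have little RNA in retina. As mRNA levels were not measured and only peaks past the authors' threshold are listed, absence from the lists does not show that Argonaute was absent from a gene.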

How the data were processed

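Argonaute HITS-CLIP was measured in 3 replicates of bovine retina. CASAVA 1.8.1 and GSNAP are named, without roles, in the submitters' processing notes. The sources used here do not give the peak caller, the genome build or the rule for listing a site. Per the file headers, each line gives for each replicate a peak's position, length, summit, tags (a count, unscaled), a score (-10 times log10 of a p-value) and a fold enrichment, a ratio over a background the headers do not describe. Columns were assigned to replicates by the header.

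Gene names were upper-cased, and the members were matched exactly. Genes of the lists and of the RefSeq table were also matched through synonyms in that table. The AGO2 site, for example, is listed under the older name EIF2C2. MIR181A1 is spelled MIR181A-1 in the RefSeq table (assembly ARS-UCD2.0), which served for names and neighbours only. The pile-up is the fold enrichment divided by its step in each replicate and strand. Edges are 5' or 3' by the strand of the list. The exact multinomial test ran on all 402 sites and was tested on simulated data. Named genes are the 7 members, the highest and lowest other miRNA genes, 3 like sites per family and up to 4 listed genes per list; MIR451, HIPK2 near the cluster and the miR-181 loci were chosen after their values were seen. For photoreceptor markers only the count is given, and 1 gene of the miR-181 target list was left out and is not reported here. The members and lists were chosen with earlier results of these data known. The alternatives were other scalings, filters on tags, score and overlap, each strand alone, tags per length, log2(tags + 1), the pile-up and each replicate left out. The analysis used Python 3.11.15, scipy 1.17.1, numpy 2.4.6, matplotlib 3.10.9 and pandas 2.3.3.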

Additional observations from a re-analysis of the deposited data

How the results depend on the processing

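None of the 7 miRNA genes was called by the exact multinomial test under any setting that kept them. The count of all sites called, 20, was 47 with no scaling, 7 with the negative-strand table alone, 7 among sites with a score of at least 400 in all 3 peaks, and 6 to 12 with 1 replicate left out; all but the first of these rest on fewer sites or tags, and the cause was not tested. With the pile-up, chosen as a setting after seeing the data, the median of the 7 genes was 7.33 in place of 9, since it leaves out tags away from the summit. The ratio of their median tags to that of other miRNA genes, 1.08, was 1.39 per nt of length and 1.32 at a score of at least 400, where only 2 and 5 genes were left. For the share of the length limit this ratio, 0.757, turned to 1.39 for tags per nt, so which group is higher depends on how length enters. No paired analysis was possible because there is only 1 group. With 18 to 49 tags per gene, neighbours in the order were not separated. The exact sign-flip permutation test could not separate them at any depth, since 3 replicates allow no p below 0.25. Library depth was not measured, so its part was not tested.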

Other observations

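At 3 other miRNA genes the summit did not keep to the 5' side. At MIR324 it lay 11, 11 and 12 nt from the 3' edge of peaks 57, 61 and 62 nt long, in all 3 replicates. At MIR16A it lay 51, 14 and 43 nt from the 5' edge, and at MIR125B2 79, 49 and 12 nt, so that the summits of each moved by 37 nt between replicates. The pile-up was 5, 7 and 3 for MIR16A and 4, 5 and 5 for MIR125B2. At MIR99A and MIRLET7C it was 5, 5 and 4 each, and their summits moved by 1 nt. The MIRLET7C peaks were 50, 24 and 23 nt long, so its summit had less room to move. The parts of pile-up and length were not tested. Of the 22 miRNA genes 21 stood in the negative-strand list, in which 213 of the 402 sites lay.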
